A study of Mus musculus with 200 samples.

Results

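The 10 genes described here encode neuropeptides or their precursors and were taken by gene name from a table of 56941 mouse genes. They are somatostatin (*Sst*), neuropeptide Y (*Npy*), vasoactive intestinal peptide (*Vip*), cholecystokinin (*Cck*), proenkephalin (*Penk*), prodynorphin (*Pdyn*), the tachykinin precursors *Tac1* and *Tac2*, corticotropin-releasing hormone (*Crh*) and *Adcyap1*, which encodes pituitary adenylate cyclase-activating polypeptide (PACAP). Their messenger RNA was measured by poly(A) RNA sequencing of brain tissue from 200 mice after a closed-head injury (CHI), which was one impact on the unopened skull under isoflurane, or after sham surgery, which had the anaesthesia and the incision alone. The mice belonged to 4 strains, labelled C57BL/6J with 61 mice, IL-1R1 gKO with 55, IL-1R1 eRestore with 50 and IL-1R1 nRestore with 34, where IL-1R1 is the interleukin-1 receptor encoded by *Il1r1*. The alleles and any driver behind the 3 IL-1R1 strains are not given in the sources used here. Tissue was taken at 9, 24 or 72 h. At 9 h there were 15 CHI and 6 sham C57BL/6J mice, 13 and 6 IL-1R1 gKO mice, 12 and 6 IL-1R1 eRestore mice, and 6 and 4 IL-1R1 nRestore mice. At 24 h the CHI and sham numbers in the same order of strains were 14 and 6, 12 and 6, 9 and 5, and 8 and 5. At 72 h they were 14 and 6, 12 and 6, 12 and 6, and 6 and 5. There were 102 females and 98 males aged 3.3 to 7.67 months, and the IL-1R1 nRestore mice at 72 h were all labelled male. For C57BL/6J a single hemisphere was used after perfusion with saline, and for the other strains the labels say brain. The comparisons asked how each gene differed between CHI and sham mice in each strain at each time.

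Neuropeptides are made as longer precursors, which prohormone convertases cut inside dense-core vesicles. Once released they act through G protein-coupled receptors until extracellular peptidases degrade them. In the cortex *Sst*, *Npy*, *Vip* and *Crh* are known from interneurons, and *Cck* from interneurons and pyramidal cells. In the striatum *Penk* is typical of the projection neurons that carry the dopamine receptor *Drd2*, and *Tac1* and *Pdyn* of those that carry *Drd1*. PACAP raises cyclic AMP in the cells that carry its receptors. In bulk tissue, fewer cells of a type and less RNA per cell cannot be told apart.

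The libraries held 14857985 to 57355676 estimated counts (median 20258936). The lowest count of a member in any mouse was 37, for *Tac2*, and the highest was 13081, for *Penk*, and all 10 members passed the filter on low counts in every comparison. Values are given as CPM, which are counts scaled to the size of the library, where mice are compared, and as TPM, which are scaled to gene length as well, where genes are compared. *Il1r1* was not lower in mice labelled IL-1R1 gKO (median 3.94 TPM, range 2.39 to 7.86) than in C57BL/6J mice (median 2.005 TPM, range 0.998 to 4.77), so the gene count does not check that label. In 2 mice the sex-linked genes went against the labelled sex, namely an IL-1R1 eRestore sham mouse at 24 h and an IL-1R1 nRestore CHI mouse at 72 h. No experiment in the labels held mice of 9 h together with mice of a later time, and surgery was done in the morning (stated for C57BL/6J). Between 9 h and the later times, time after surgery therefore cannot be told apart from experiment and time of day, whereas eIL-1-38 and NiL-1-21 held mice of both 24 and 72 h. At 24 h the CHI mice of NiL-1-21 (5 of 12 IL-1R1 gKO, 4 of 9 IL-1R1 eRestore and 4 of 8 IL-1R1 nRestore mice) had no sham mouse of their strain in that experiment and were older than every sham mouse of their strain, so CHI is there partly confounded with experiment and age.

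The 250 bases before the start of a transcript are shown for 4 of the members whose values the results turn on or whose windows hold the motif searched. The sequences are RefSeq's, on build GRCm38.p6, read 5′ to 3′ on the gene's strand. Capitals mark the cyclic AMP response element TGACGTCA, or its shorter form TGACG, on either strand (CGTCA is TGACG on the other strand). Of the 10 members 8 had a window, *Penk* and *Crh* being the others. The sequences are *Adcyap1* at chr17:93198767-93199016 (plus strand), *Cck* at chr9:121495695-121495944 (minus strand), *Tac1* at chr6:7554811-7555060 (plus strand) and *Sst* at chr16:23890845-23891094 (minus strand).
Adcyap1: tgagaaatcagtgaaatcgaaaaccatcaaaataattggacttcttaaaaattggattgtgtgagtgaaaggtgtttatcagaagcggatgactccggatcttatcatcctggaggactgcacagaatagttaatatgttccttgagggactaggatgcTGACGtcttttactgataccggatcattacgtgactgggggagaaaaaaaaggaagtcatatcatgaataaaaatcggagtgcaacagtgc
Cck: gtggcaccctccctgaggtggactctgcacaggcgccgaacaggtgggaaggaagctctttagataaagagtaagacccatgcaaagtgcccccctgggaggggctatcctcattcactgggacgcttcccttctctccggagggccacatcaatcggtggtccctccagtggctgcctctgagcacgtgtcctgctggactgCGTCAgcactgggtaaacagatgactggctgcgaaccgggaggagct
Tac1: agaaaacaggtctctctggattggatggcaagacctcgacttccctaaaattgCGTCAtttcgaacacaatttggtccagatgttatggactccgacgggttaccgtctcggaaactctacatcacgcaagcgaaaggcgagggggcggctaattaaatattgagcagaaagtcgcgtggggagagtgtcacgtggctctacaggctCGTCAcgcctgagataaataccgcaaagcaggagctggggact
Sst: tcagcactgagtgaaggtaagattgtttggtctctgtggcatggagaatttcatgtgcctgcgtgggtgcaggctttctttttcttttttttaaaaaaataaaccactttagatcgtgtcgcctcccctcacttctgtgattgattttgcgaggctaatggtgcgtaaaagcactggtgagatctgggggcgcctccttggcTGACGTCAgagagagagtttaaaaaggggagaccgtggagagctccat
*Pdyn* and *Adcyap1* had a second window, so the counts that follow are of genes, while the shares are of windows. The full element stood before 1 of the 8 genes, *Sst*, 48 bases before the start, and in 1.55% of all 32851 windows of this length. The shorter form stood before 5 of the 8, namely *Sst*, *Vip*, *Cck*, *Tac1* and *Adcyap1*, and in 17.8% of all windows. In *Adcyap1* it lay 91 bases before the start shown and 242 bases before a second start, in *Cck* 47, in *Vip* 79, and in *Tac1* 43 for the nearer of its matches. These are matches of letters only.

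In the 45 sham mice of 24 and 72 h the levels of the 10 genes ran over a wide range. *Cck* was highest (median 539 TPM, range 371 to 684), followed by *Sst* (520, 273 to 634), *Penk* (366, 184.5 to 615), *Npy* (243, 135.6 to 298.5) and *Tac1* (102.5, 70.8 to 154.7). Below these came *Vip* (median 53 TPM, range 43.6 to 73.4), *Pdyn* (32.1, 17 to 45.8), *Tac2* (19.7, 11.1 to 27.6), *Adcyap1* (14.7, 8.4 to 22.9) and *Crh* (7.96, 5.68 to 10.8). The ranges of neighbours in this order overlapped in every case, and *Cck* and *Sst* differed by less than 1 SD of either (546 ± 75.4 and 504 ± 87.4 TPM, mean ± SD, n = 45).

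*Adcyap1* was lower in CHI than in sham mice at 9 h. Among C57BL/6J mice the 6 sham values ran from 22.1 through a median of 31.4 to 36.3 CPM, and the 15 CHI values from 11.2 through 19.7 to 29.7 CPM. Of the 15 CHI mice 11 lay below every sham mouse and none above. *Adcyap1* fell by 0.65 on the log2 scale (standard error 0.09, adjusted *P* = 3.42e-05, edgeR). It was the only one of the 10 members called in this strain at 9 h, where 14.1% of all genes tested were called.

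**Figure D1:**
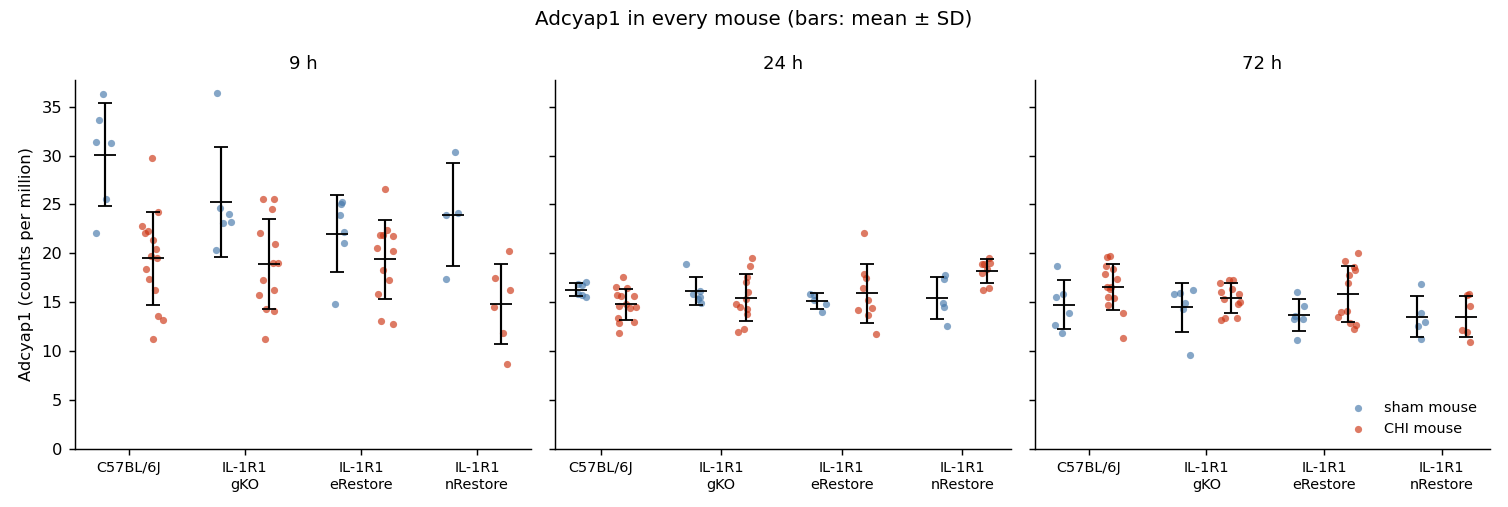
*Adcyap1* in each of the 200 mice, in CPM, by strain and by hours after surgery, with sham and CHI mice side by side and bars for mean ± SD. At 9 h the C57BL/6J CHI mice sit between 11.2 and 29.7 CPM and the sham mice between 22.1 and 36.3. In this strain the means of both surgeries are lower at 24 and 72 h, while the mean of IL-1R1 nRestore CHI mice is higher at 24 h.

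The other strains showed *Adcyap1* differences of the same direction at 9 h, none of which passed the test by strain. In IL-1R1 gKO mice the sham values were 20.3, 23.6 and 36.4 CPM (lowest, median and highest) and the CHI values 11.2, 19 and 25.6 CPM. Here 8 of 13 CHI mice lay below all sham mice, and the log2 difference was −0.38 (standard error 0.13, adjusted *P* = 0.248). In IL-1R1 eRestore mice the sham values were 14.8, 23 and 25.2 CPM and the CHI values 12.7, 20.4 and 26.5 CPM, which overlap widely, with a log2 difference of −0.18 (standard error 0.13, adjusted *P* = 0.415), which became −0.33 with the level of striatal markers as a covariate and 0.10 with DESeq2 and gene-length offsets, neither of them called. In IL-1R1 nRestore mice the 4 sham values ran from 17.4 to 30.4 CPM (median 24) and the 6 CHI values from 8.72 to 20.2 CPM (median 15.4). The log2 difference was −0.99 (standard error 0.21, adjusted *P* = 0.0599), and it was called by DESeq2 at −0.998, by edgeR with the striatal covariate (−1.37, adjusted *P* = 0.0209), with other filters on low counts (0.047 with 10 counts or more in each mouse) and without sham replicate 3 (−1.37, 0.0482). It was −0.69 and not called without covariates. The shares of genes called were 0.608% in IL-1R1 nRestore mice, 7.34% in IL-1R1 eRestore mice and 0.199% in IL-1R1 gKO mice at 9 h, and no member was called in these 3 strains. The difference in CHI effect among strains was not called for *Adcyap1* (*P* = 0.145, adjusted *P* = 0.87, edgeR) or any other member, with 0.00534% of genes called.

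Over all strains at 9 h (46 CHI and 22 sham mice, the same mice as above), *Adcyap1* fell by 0.47 (standard error 0.08, adjusted *P* = 1.26e-05), with 11 CHI mice below every sham mouse. The sham values were 14.8, 24.1 and 36.4 CPM (lowest, median and highest) and the CHI values 8.72, 19 and 29.7 CPM. In this fit 4 of 10 members were called, all lower, against 26.5% of all genes. *Adcyap1* was also called in each of the 3 experiments of 9 h taken alone. It fell by 0.39 in eIL-1-76 (adjusted *P* = 0.00819, edgeR), by 0.54 in eIL-1-80 (0.00641) and by 0.69 in TM-2-33 (0.0316). In eIL-1-80 the 7 sham values ran from 21 to 25.6 CPM and the 12 CHI values from 11.2 to 21 CPM.

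*Crh*, which drives the release of adrenocorticotropic hormone and is also made by cortical interneurons, was the other member with a low level that was called at 9 h. Over all strains the sham values were 3.14, 5.44 and 8.19 CPM (lowest, median and highest) and the CHI values 2.4, 4.33 and 7.96 CPM, so that the groups overlapped over most of their range. *Crh* fell by 0.29 (standard error 0.08, adjusted *P* = 0.00545, edgeR). Each strain alone gave a lower fitted level, from −0.20 in IL-1R1 gKO to −0.53 in IL-1R1 nRestore mice, and none was called. Within experiments the log2 differences were −0.34, −0.01 and −0.38 in eIL-1-76, eIL-1-80 and TM-2-33, and none passed the test, so the call rests on the experiments together.

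**Figure D2:**
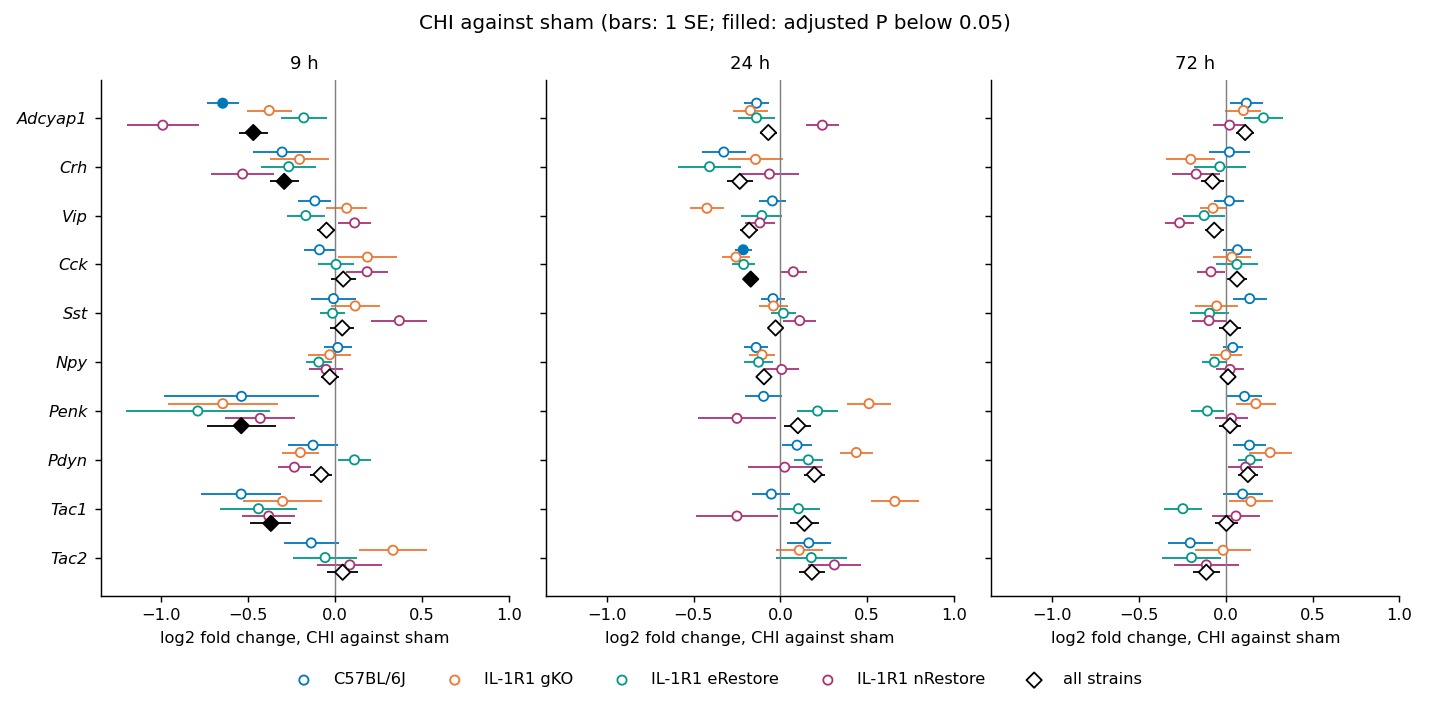
Log2 difference (CHI minus sham) of the 10 members with 1 standard error, for each strain and for all strains, at 9, 24 and 72 h, with filled symbols where the adjusted *P* was under 0.05. *Adcyap1*, *Crh*, *Tac1* and *Penk* were called lower over all strains at 9 h, *Cck* was called lower at 24 h, and no symbol is filled at 72 h.

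*Penk* and *Tac1*, the precursors typical of the striatal projection neurons, were lower over all strains at 9 h but varied more between mice than any other member. The *Penk* values ran from 25.5 through 92.6 to 291 CPM in sham mice and from 20 through 50.3 to 194.6 CPM in CHI mice, with a coefficient of variation of 76% in sham mice. *Penk* fell by 0.54 (standard error 0.20, adjusted *P* = 0.0356, edgeR), a call that was lost without the covariates (adjusted *P* = 0.056) and with no filter beyond 1 count (0.0673). The *Tac1* values ran from 8.19 through 15.7 to 44 CPM in sham mice and from 6.39 through 11.9 to 38 CPM in CHI mice. *Tac1* fell by 0.37 (standard error 0.12, adjusted *P* = 0.0146). By strain neither was called, with log2 differences from −0.79 to −0.43 for *Penk* and from −0.54 to −0.30 for *Tac1*. With no filter beyond 1 count both were called in IL-1R1 nRestore mice (−0.42, adjusted *P* = 0.000133, and −0.37, 0.0355, edgeR). There the log2 differences hardly changed from −0.43 and −0.38, while the standard errors went from 0.20 and 0.15 to 0.09 and 0.11. The share of all genes called in that fit is not given here. *Tac1* was called in C57BL/6J mice without sham replicate 6 (−0.70, adjusted *P* = 0.0371, edgeR). In C57BL/6J mice the *Penk* medians ran the other way (40.9 CPM in sham and 44.1 CPM in CHI mice), and 1 sham mouse stood at 281 CPM with the next at 43.1 CPM. Without that mouse the log2 difference was 0.19 (standard error 0.44, adjusted *P* = 0.844, edgeR). The medians in eIL-1-76 also ran that way, at 40.8 and 46.9 CPM. In 1 experiment alone *Penk* was never called, and *Tac1* was called only in eIL-1-80, where it fell by 0.57 (adjusted *P* = 0.0323).

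Over all strains, genes that mark the striatum were mostly lower too. Of a list of 10 striatal markers, among them *Drd1*, *Drd2* and *Adora2a*, 5 were called lower and none higher over all strains at 9 h, with a median log2 difference of −0.55 against −0.01 over all genes tested. *Drd2* fell by 0.96 (adjusted *P* = 0.00926, edgeR) and *Drd1* by 0.57 (0.000408), and no marker of the list was at 0 in all mice. *Ppp1r1b* of the list rose by 0.18 without a call (adjusted *P* = 0.34, edgeR), and no marker was called in a strain alone at 9 h. The summed TPM of the list was 185.2, 412 and 1141 (lowest, median and highest) in sham mice and 192.6, 377 and 962 in CHI mice at 9 h. By experiment its sham and CHI medians were 259 and 267 in eIL-1-76, 293.5 and 388 in eIL-1-80, and 829 and 676 in TM-2-33. With the level of the striatal markers as a covariate, the *Penk* difference became −0.00 (adjusted *P* = 0.992) and the *Tac1* difference −0.08 (0.348), while *Adcyap1* fell by 0.54 (8.22e-07) and *Crh* by 0.37 (0.000519). *Vip* then fell by 0.13 (adjusted *P* = 0.0288), which it had not done without the covariate (−0.05, adjusted *P* = 0.564). Choroid plexus markers also differed, with 9 of 10 called lower and a median of −1.53 against −0.01 over all genes. Their summed TPM was 173.7, 223.5 and 8347 in sham and 142.8, 201 and 3301 in CHI mice. Of 6 cerebellar markers tested, 1 was called higher and 2 lower (median −0.25). Of 10 markers of excitatory neurons 2 were called higher (median −0.01), and of 10 interneuron markers 1 was called lower (−0.02). Over all genes 26.5% were called. The part of these lists in the results was not tested.

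**Figure D3:**
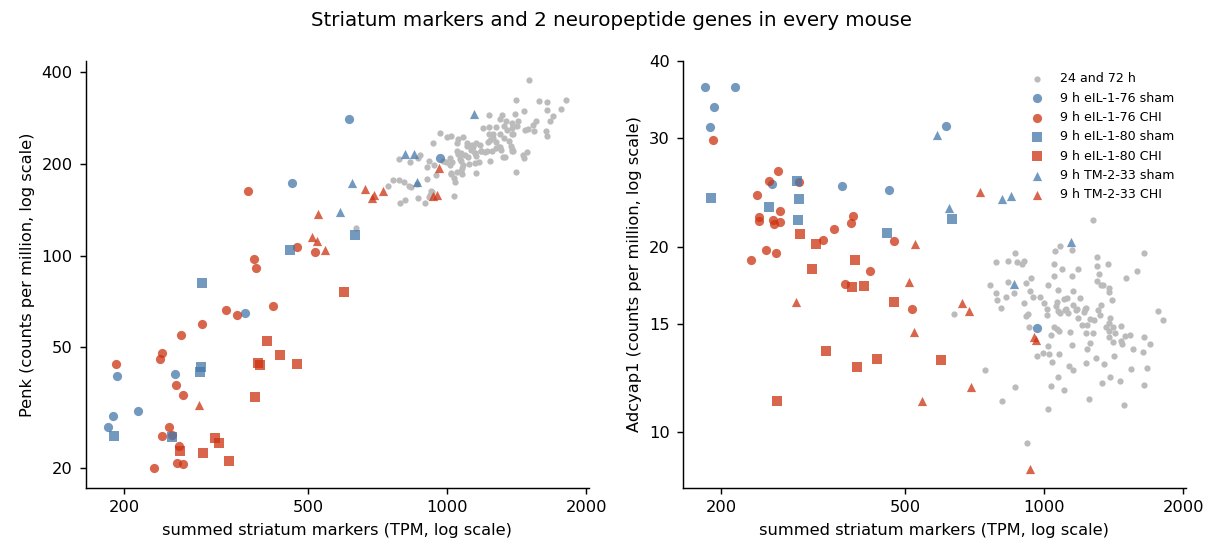
Summed TPM of the 10 striatal markers (log axis) against *Penk* and *Adcyap1* in CPM (log axis), with the mice of 9 h by experiment and surgery and those of 24 and 72 h in grey. *Penk* follows the summed markers from 185.2 to 1808 TPM, and the mice of 9 h lie mostly below those of the later times.

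The striatal markers also differed between the experiments, with ranges that overlapped. Their summed TPM had a median of 296 (range 185.2 to 963) in the 50 mice of eIL-1-76 and eIL-1-80, 691 (291 to 1141) in the 18 mice of TM-2-33, and 1153 (637 to 1808) in the 132 mice of 24 and 72 h. *Penk* in sham mice was 99.8 ± 95.8 CPM in eIL-1-76 (mean ± SD, n = 9), 62.5 ± 37.8 CPM in eIL-1-80 (n = 7) and 201.5 ± 52.8 CPM in TM-2-33 (n = 6), and the sham medians of *Tac1* were 13.6, 14.7 and 28.2 CPM in the same order. All IL-1R1 nRestore mice of 9 h belonged to TM-2-33, and its other mice were IL-1R1 gKO. Its mice were younger than all others of 9 h, so experiment is there mixed with strain and age. *Pdyn*, the dynorphin precursor, was not called at 9 h (log2 difference −0.08, standard error 0.06, adjusted *P* = 0.378), and its sham and CHI medians were 34.7 and 34.1 CPM.

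The remaining members showed no call at 9 h in these fits, though *Sst* was called in IL-1R1 nRestore mice with no filter beyond 1 count (0.38, standard error 0.09, adjusted *P* = 0.00195, edgeR). With the filter its difference there was alike (0.37) and its standard error 0.16. The log2 differences over all strains were 0.04 for *Sst*, −0.03 for *Npy*, −0.05 for *Vip*, 0.05 for *Cck* and 0.04 for *Tac2*, each less than its standard error (0.07, 0.05, 0.06, 0.07 and 0.09). By strain the values ran from −0.09 to 0.19 for *Cck*, the most abundant member, and from −0.01 to 0.37 for *Sst*. *Tac2*, the neurokinin B precursor, ran from −0.14 to 0.33.

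At 24 h *Cck* was the only member that edgeR called in a strain. In C57BL/6J mice its sham values were 115, 122 and 148.6 CPM (lowest, median and highest) and its CHI values 99.3, 108.9 and 117 CPM, and 12 of 14 CHI mice lay below every sham mouse. *Cck* fell by 0.21 (standard error 0.05, adjusted *P* = 0.0417, edgeR), where 0.404% of genes were called. The call was lost when sham replicate 1, 2, 3 or 5 was left out, with log2 differences of −0.20, −0.22, −0.22 and −0.16, and in the largest experiment alone (−0.14, adjusted *P* = 0.724).

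**Figure D4:**
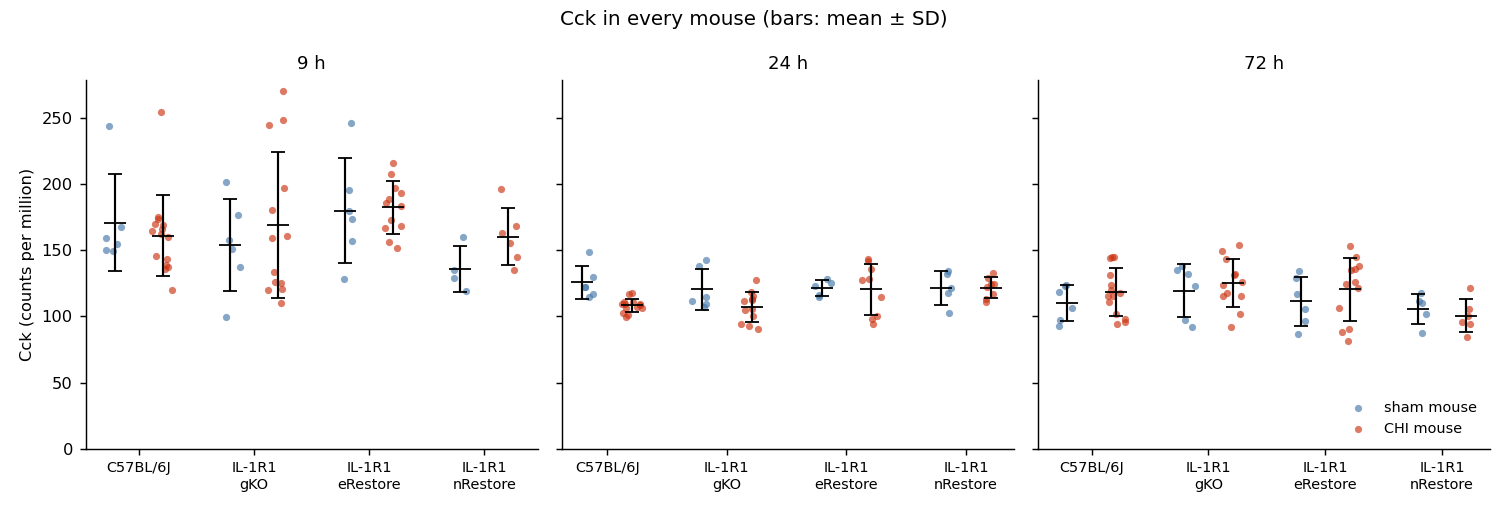
*Cck* in each of the 200 mice, in CPM, by strain and by hours after surgery, with bars for mean ± SD. At 24 h the C57BL/6J CHI mice sit between 99.3 and 117 CPM and the sham mice between 115 and 148.6, a small overlap. In the other strains the groups overlap more widely.

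In the other strains at 24 h the *Cck* groups overlapped more widely and none was called, though the fitted difference was of like size in IL-1R1 gKO and IL-1R1 eRestore mice. In IL-1R1 gKO mice the sham and CHI medians were 113 and 108 CPM, 6 of 12 CHI mice lay below every sham mouse and none above, and the log2 difference was −0.26 (standard error 0.08, adjusted *P* = 0.285, edgeR). In IL-1R1 eRestore mice the medians were 123 and 127.5 CPM, with 3 of 9 CHI mice below and 4 above every sham mouse, while the fit with sex and age gave −0.21 (0.07, adjusted *P* = 0.338) and the fit without them −0.02. With the striatal covariate the differences were −0.10 in IL-1R1 gKO and −0.18 in IL-1R1 eRestore mice. In IL-1R1 nRestore mice the medians were 121.3 and 123 CPM and the log2 difference 0.07 (0.08, adjusted *P* = 0.955). Over all strains *Cck* fell by 0.17 (standard error 0.04, adjusted *P* = 0.00665, edgeR), as the only member called, against 1.96% of genes. It was not called without the covariates sex and age (−0.12, adjusted *P* = 0.083), in eIL-1-38 alone (−0.19, 0.0894) or in NiL-1-24 alone (−0.13, 0.967). *Vip* (−0.18, standard error 0.05, adjusted *P* = 0.0513), *Pdyn* (0.20, 0.06, 0.0706) and *Crh* (−0.23, 0.08, 0.0893) came next and did not pass, but several alternatives called *Vip*. These were DESeq2 with its own size factors (adjusted *P* = 0.0302) or gene-length offsets (0.0465), RLE factors (0.0497), the filter that kept genes with 10 counts or more in each mouse (0.0456) and the fit without the sham mouse whose sex-linked genes went against its label (−0.19, 0.043). DESeq2 with its own size factors also called *Pdyn* (0.0448). The *Vip* difference was smaller and not called with the striatal covariate (−0.12, adjusted *P* = 0.199), without covariates (−0.07, 0.587) and with experiment in place of age (−0.11, 0.311). The shares called in the other strains were 0.0059% in IL-1R1 gKO and 0% in IL-1R1 eRestore and IL-1R1 nRestore mice. In IL-1R1 eRestore mice 1494 genes had an unadjusted *P* under 0.05 and DESeq2 called 50, and in IL-1R1 nRestore mice these numbers were 740 and 3.

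The IL-1R1 gKO mice at 24 h gave higher *Tac1*, *Pdyn* and *Penk* values and lower *Vip* values that edgeR did not call and DESeq2 did, among 120 genes it called in all (83 with gene-length offsets) against 1 by edgeR. The *Tac1* values were 30.5, 36 and 39 CPM in sham and 33.2, 47.1 and 75.8 CPM in CHI mice (lowest, median and highest), with a log2 difference of 0.66 (standard error 0.14, adjusted *P* = 0.0971). For *Pdyn* they were 23.4, 33.9 and 39.6 CPM in sham and 34.4, 41.6 and 50.9 CPM in CHI mice (log2 difference 0.44, adjusted *P* = 0.0971). For *Penk* they were 124, 212 and 220 CPM in sham and 189.2, 246 and 326 CPM in CHI mice (0.51, adjusted *P* = 0.14). *Vip* ran 37, 40.6 and 49.9 CPM in sham and 26, 33.9 and 43 CPM in CHI mice (−0.42, adjusted *P* = 0.108). With DESeq2's own size factors the adjusted *P* values were 0.00175, 0.00623, 0.0162 and 0.0126. In the largest experiment alone, which leaves out the older CHI mice, the log2 differences were 0.65, 0.30, 0.30 and −0.36 for *Tac1*, *Pdyn*, *Penk* and *Vip*. All 10 striatal markers were higher in these CHI mice without any being called (median 0.63 against −0.01 over all genes), with summed TPM of 637, 1009 and 1208 in sham and 1020, 1278 and 1647 in CHI mice. Hypothalamic markers stood at a median of 1.10 and choroid plexus markers at −1.99, also without a call, and their part was not tested. With the striatal covariate the log2 differences were 0.33, 0.11, 0.01 and −0.19 for *Tac1*, *Pdyn*, *Penk* and *Vip*. The CHI effect did not differ among strains at 24 h past the threshold for any member (lowest adjusted *P* = 0.446, for *Penk*, with 0.00541% of genes called).

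At 72 h none of the 10 members was called in any strain or over all strains. The log2 differences over all strains ran from −0.11 for *Tac2* to 0.13 for *Pdyn*, and *Adcyap1* stood at 0.11 (standard error 0.05, adjusted *P* = 0.6, edgeR), with sham and CHI medians of 13.9 and 15.8 CPM. Of all genes 0.717% were called over all strains, 0% in C57BL/6J and IL-1R1 gKO mice, 0.00605% in IL-1R1 eRestore and 0.0121% in IL-1R1 nRestore mice. In C57BL/6J mice 869 genes and in IL-1R1 gKO mice 376 genes had an unadjusted *P* under 0.05, and DESeq2 called 38 and 0. Among strains the CHI effects again gave no call in the members (lowest adjusted *P* = 0.997, with 0.00543% of genes called).

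The difference between CHI and sham mice itself changed with time for some members. From 9 h to 24 h it changed for *Adcyap1* (9 h minus 24 h, −0.43, standard error 0.09, adjusted *P* = 0.000502, edgeR), *Tac1* (−0.61, 0.15, 0.00253), *Penk* (−0.79, 0.23, 0.0149) and *Pdyn* (−0.29, 0.09, 0.0231), where 9.63% of genes were called. The striatal markers moved with the latter 3, from a median log2 difference of −0.55 at 9 h to 0.15 at 24 h over all strains (−0.006 and −0.001 over all genes). With the striatal covariate the differences of *Penk*, *Tac1* and *Pdyn* were −0.00, −0.08 and 0.00 at 9 h and −0.02, 0.00 and 0.12 at 24 h, none of them called. Between 9 h and 72 h it differed for *Adcyap1* (−0.59, 0.09, 2.49e-07), *Tac1* (−0.42, 0.15, 0.0464) and *Penk* (−0.64, 0.23, 0.0496), where 11.8% of genes were called. Of these, *Penk* was not called with RLE factors (adjusted *P* = 0.051), and with no filter beyond 1 count neither *Penk* (0.0858) nor *Tac1* (0.0804) was. Between 24 h and 72 h no member was called, and 0.0249% of genes were.

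Sham mice alone differed among the 3 times in 7 of 10 members, against 46.7% of genes. *Adcyap1* was lower at 24 h (log2 difference −0.68) and 72 h (−0.83) than at 9 h (adjusted *P* = 4.22e-17, edgeR), with sham medians of 24.1, 15.7 and 13.9 CPM. *Cck* fell by 0.39 and 0.51, *Vip* by 0.28 and 0.45, *Npy* by 0.24 and 0.38 and *Crh* by 0.25 and 0.27. *Tac1* rose by 1.03 and 1.00 and *Penk* by 0.96 and 0.97, with *Penk* sham medians of 92.6, 220 and 221 CPM. The summed striatal markers moved with them, at sham medians of 412, 1147 and 1172 TPM. Other summed markers had sham medians of 4274, 3464 and 3417 TPM (excitatory neurons), 777, 771 and 783 TPM (interneurons) and 9.59, 48.1 and 23 TPM (hypothalamus). Their part in the differences of the members was not tested. The *Penk* values of the 6 sham mice of TM-2-33 at 9 h (138.7 to 291 CPM) lay within the range of the sham mice at 24 h (124 to 376 CPM). For C57BL/6J mice 1 tissue procedure is stated for all times, and for the other strains it is not given in the sources used here. *Sst* (adjusted *P* = 0.0755), *Pdyn* (0.573) and *Tac2* (0.803) were not called.

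Sham mice of the 4 strains differed in 1 member. At 24 h *Vip*, which marks a class of interneurons that inhibit other interneurons, differed among strains (adjusted *P* = 0.0401, edgeR), at 0.21 in IL-1R1 gKO, −0.12 in IL-1R1 eRestore and 0.31 in IL-1R1 nRestore mice relative to C57BL/6J. The sham medians were 36.2 CPM in C57BL/6J, 40.6 in IL-1R1 gKO, 32.6 in IL-1R1 eRestore and 44.1 in IL-1R1 nRestore mice. With experiment added to the fit it was not called (adjusted *P* = 0.592). The shares of genes called among sham strains were 0.745% at 9 h, 2.22% at 24 h and 0.306% at 72 h.

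Across all 200 mice *Tac2* was higher in males than in females by 0.21 (standard error 0.05, adjusted *P* = 0.0128, edgeR), the only member called among 0.363% of genes. Its values were 1.75, 3.79 and 6.07 CPM in females and 2.26, 4.24 and 9.13 CPM in males (lowest, median and highest), which overlap over most of their range. The CHI effect differed between sexes for no member at 9, 24 or 72 h, with 0%, 0% and 0.00543% of genes called. At 9 h and 24 h 429 and 973 genes had an unadjusted *P* under 0.05 in that test. The tests of sex used the labelled sex and kept the 2 mice whose sex-linked genes went against it.

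The genes that act on these peptides were described by the same fits. Of 22 receptors of the 10 peptides 19 were tested over all strains at 9 h, and 1 was higher and 3 were lower, where 26.5% of all genes were called (median −0.13 against −0.01 over all genes). *Sstr2*, a somatostatin receptor, fell by 0.44 (adjusted *P* = 8.58e-08, edgeR), *Crhr1*, the main receptor of the peptide from *Crh*, by 0.29 (5.55e-07) and *Tacr3*, the receptor of neurokinin B, by 0.56 (0.00423). *Adcyap1r1*, the PACAP receptor, rose by 0.18 (1.87e-05), in the opposite direction to its ligand gene. In C57BL/6J mice *Sstr2* fell by 0.74, *Npy1r* by 0.54, *Crhr1* by 0.38 and *Tacr3* by 0.85, where 14.1% of all genes were called, and in IL-1R1 eRestore mice, with 7.34% called, *Adcyap1r1* rose by 0.22, *Cckbr* by 0.28 and *Vipr2* fell by 1.60. With the striatal covariate these 3 differences in IL-1R1 eRestore mice became 0.20, 0.14 and −0.79 and were not called (adjusted *P* = 0.103, 0.252 and 0.336), and *Tacr3* in C57BL/6J mice stood at −0.75 (0.0507). No receptor was called at 24 or 72 h.

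Of 17 genes for precursor processing and dense-core vesicles 3 were higher and 2 lower over all strains at 9 h, against the same 26.5% of all genes (median 0.02 against −0.01). *Chgb*, a granin of the vesicle core, rose by 0.23 (adjusted *P* = 7.65e-06, edgeR) and *Scg3*, which helps to load vesicles, by 0.17 (0.00121). *Pcsk1*, a prohormone convertase, fell by 0.31 (0.00117), and *Scg2*, a secretogranin, by 0.13 (0.0124). In C57BL/6J mice *Pcsk1* fell by 0.41, *Chgb* rose by 0.26 and *Scg3* by 0.20. In IL-1R1 eRestore mice *Ptprn2* rose by 0.22, *Chgb* by 0.30 and *Pcsk2* by 0.27, and in IL-1R1 nRestore mice *Scg2* fell by 0.40. With the striatal covariate these 4 differences were 0.23, 0.22, 0.19 and −0.32 and were not called (adjusted *P* = 0.0516, 0.113, 0.208 and 0.271), nor was *Scg3* in C57BL/6J mice at 0.19 (0.052). Of 9 extracellular peptidases 1 was higher and 3 were lower in this fit, with 26.5% of all genes called (median −0.12 against −0.01). *Mme*, which encodes neprilysin, fell by 0.39 (adjusted *P* = 0.000707), *Dpp4* by 0.35 (0.00152) and *Nln* by 0.12 (0.00486), and *Thop1* rose by 0.10 (0.0061). *Mme* fell by 0.24 with the striatal covariate (adjusted *P* = 0.0129). Of 29 other neuropeptide genes only 10 were tested at 9 h and none was called. At 24 h *Cort*, which encodes a relative of somatostatin, fell by 0.49 (adjusted *P* = 0.00639) and *Grp*, the gastrin-releasing peptide gene, by 0.39 (0.0213), out of 15 tested, where 1.96% of all genes were called. *Grp* stood at −0.31 and was not called with the striatal covariate (adjusted *P* = 0.0844). These 4 lists had no call over all strains at 72 h.

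**Figure D5:**
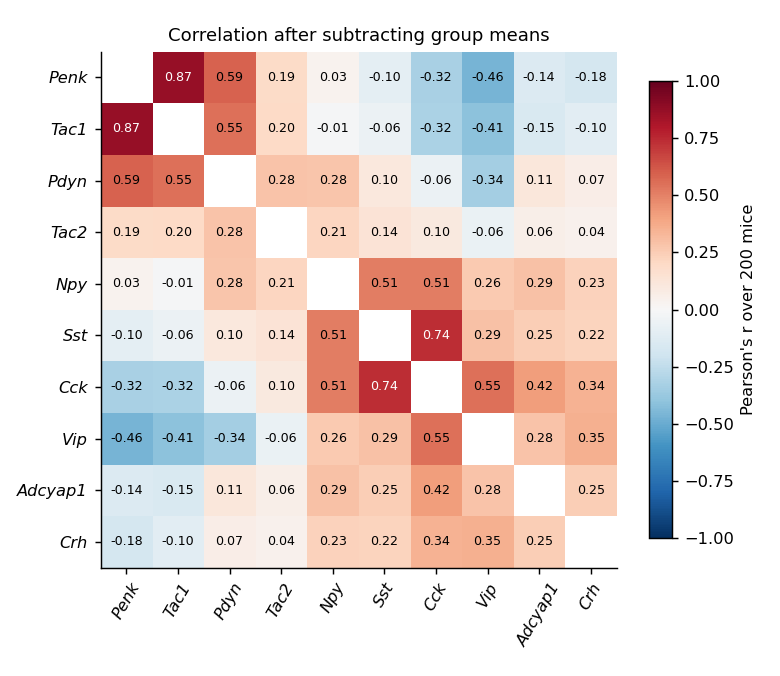
Pearson correlation between the 10 members over the 200 mice, after subtraction of the mean of each group of strain, surgery and time. *Penk*, *Tac1* and *Pdyn* correlate at 0.55 to 0.871 with each other and *Sst*, *Npy*, *Cck* and *Vip* at 0.26 to 0.74, a range in which *Adcyap1* with *Cck* (0.42, but 0.243 within experiments) and *Crh* with *Vip* (0.355 in both) also lie.

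Within groups 28 of the 45 pairs of members passed an adjusted test that permuted mice within groups, 23 of them positive and 5 negative. The share of such pairs among other genes was not computed. The closest pair was *Penk* and *Tac1* (Pearson's r = 0.871, Spearman's rho = 0.82, permutation *P* = 1e-05, the smallest the 100000 permutations can give, adjusted *P* = 3.75e-05). It held at 0.859 without the 2 mice farthest from the median and at 0.836 within experiments. *Sst* and *Cck* came next (r = 0.74, rho = 0.707, permutation *P* = 1e-05, adjusted *P* = 3.75e-05), at 0.721 without 2 mice and 0.69 within experiments. *Sst* and *Adcyap1* passed (r = 0.247, rho = 0.175, adjusted permutation *P* = 0.00557) but stood at 0.00674 within experiments, and *Npy* and *Adcyap1* went from 0.292 to 0.12. With the striatal marker score the correlations were 0.933 for *Penk*, 0.873 for *Tac1* and 0.579 for *Pdyn*, −0.556 for *Vip* and −0.489 for *Cck* (each permutation *P* = 1e-05, adjusted over 10 to 2e-05), and their Spearman's rho values were 0.902, 0.815, 0.59, −0.587 and −0.415. These 5 stood at 0.923, 0.851, 0.561, −0.56 and −0.5 within experiments. *Adcyap1* (r = −0.277, adjusted permutation *P* = 0.00297), *Crh* (−0.225, 0.012) and *Sst* (−0.207, 0.019) passed with the score as well. By Spearman's rho *Crh* (adjusted permutation *P* = 0.125) and *Sst* (0.0852) did not.

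By the same residuals, genes most like each member among 14618 compared over the 200 mice were as follows, by Pearson's r. *Penk* was closest to *Adora2a* (0.943) and *Drd2* (0.921), and *Tac1* to *Klhl13* (0.873), *Penk* (0.871) and *Drd1* (0.854). Apart from *Klhl13* these genes are striatal markers of the list or members. *Pdyn* was closest to *Slc32a1* (0.725) and *Pde1b* (0.675). *Sst* was closest to *Mif* (0.827), *Atp5d* (0.791) and *Myl12b* (0.774), and *Cck* to *Atp5d* (0.826), *Mif* (0.8) and *Map1lc3a* (0.794). *Adcyap1* was closest to *Pcsk1* (0.611) and *Phyhipl* (0.561). *Vip* was closest to *Serpini1* (0.627), *Schip1* (0.618) and *Cxcl14* (0.602), and *Npy* to *Lamp5* (0.575), *Napa* (0.569) and *Gde1* (0.565). The lowest likeness was found for *Tac2*, with *B630019K06Rik* at 0.473, *Vat1* at 0.454 and *Nrsn2* at 0.433, and for *Crh*, with *Crem* at 0.402, *Cdk2ap1* at 0.398 and *Fkbp4* at 0.397.

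In the annotation of GRCm39 each member is a protein-coding gene. *Adcyap1* lies on chromosome 17 (93506397 to 93515189), *Cck* on 9 (121315695 to 121324863), *Penk* on 4 (4132722 to 4141856), *Tac1* on 6 (7554120 to 7565834) and *Crh* on 3 (19747565 to 19749655). Genes on the opposite strand overlap *Cck* (*Gm68675* and *Gm69828*), *Penk* (*Gm70307* and *A830012C17Rik*) and *Adcyap1* (*Gm32465*), and since the use of strand in counting is not given in the sources used here, reads of these pairs cannot be told apart.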

How the data were processed

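Brain RNA of 200 mice, each a separate animal by the labels, was sequenced as paired-end poly(A) libraries. The authors aligned reads to GRCm39 with STAR within the nf-core/rnaseq pipeline and quantified them with Salmon, and they deposited estimated counts per gene and TPM for 56941 genes, both used here (0 columns were left unused). Estimated counts are not whole and were rounded. CPM used TMM factors over all mice.

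CHI and sham mice were compared with edgeR 4.0.16 (R 4.3.3), by the robust quasi-likelihood F-test with TMM factors, sex and age as covariates (sex was dropped where all mice were male, and comparisons of sham mice alone had no age) and Benjamini-Hochberg adjustment over all genes tested, at 0.05. A gene was kept if the number of mice with 10 counts or more reached the size of the smaller group. All P values not named otherwise come from this test, which was tested on simulated data. DESeq2 1.42.0, RLE factors, other filters and covariates, single experiments and the omission of 1 sham mouse at a time were alternatives. Single experiments over all strains and leaving out the 2 mice whose sex-linked genes go against their labels were added after seeing the data. Those 2 mice were left out only in comparisons of CHI with sham mice. Correlations used residuals of log2 CPM (prior count 1) and 100000 permutations. A median of a list stands beside that of all genes. Depth was 14857985 to 57355676 counts, and its precision is in the standard errors.

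All 10 members are named. From each other list, genes called in a comparison are named, at most 4 by smallest P, with the 3 genes most like each member, some of which are not reported here. Members and lists were chosen with earlier results of these data known.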

Additional observations from a re-analysis of the deposited data

Results flagged for a closer look

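For each member and each group of 4 to 10 mice, the highest or lowest mouse was compared with its nearest neighbour by Dixon's ratio. This set apart 19 of 160 groups. Chance gives about 1 in 20 at each end, so more where both ends are looked at, and the members share the same mice. Values are in CPM on the scale of the report, with the nearest mouse in brackets. Of C57BL/6J sham mice at 9 h, replicate 5 stood apart with the highest Penk at 281 (43.1) and the highest Pdyn at 65.1 (34.9), and replicate 2 with the highest Cck at 244 (167.6). Of IL-1R1 gKO sham mice at 72 h, replicate 3 was lowest for Npy at 24.4 (34.7) and Adcyap1 at 9.59 (14.3). The highest Adcyap1 in IL-1R1 gKO sham mice was 36.4 (24.7) at 9 h and 18.9 (16.2) at 24 h, and the lowest Penk at 24 h was 124 (179.2).

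In IL-1R1 eRestore sham mice the lowest Adcyap1 at 9 h was 14.8 (21) and the lowest Pdyn at 72 h was 29.3 (36.3). In IL-1R1 nRestore CHI mice at 9 h, replicate 1 was lowest for Vip at 42.8 (48.8) and highest for Pdyn at 49.1 (40.6), and the lowest Tac2 was 3.69 (4.41). In IL-1R1 nRestore sham mice at 24 h, replicate 1 was lowest for Npy at 30.8 (42.5) and Tac2 at 3.208 (4.25), and replicate 4 lowest for Tac1 at 28.9 (48). The highest Tac1 of IL-1R1 nRestore CHI mice at 24 h was 69.1 (48.2), the lowest Tac2 at 72 h was 2.26 (3.53), and the lowest Pdyn of IL-1R1 nRestore sham mice at 72 h was 23.8 (35). The cause was not tested.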

How the results depend on the processing

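No member changed direction where it was called in either fit, but below the threshold some did, as Penk in C57BL/6J mice at 9 h (−0.54, 0.12 with the striatal covariate and 0.19 without sham replicate 5). Adcyap1 in C57BL/6J mice at 9 h, and over all strains at 9 h, kept its call under each alternative run. The number of members called at 9 h was 1 in C57BL/6J mice and 1 to 2 when 1 sham mouse was left out (Tac1 added, at −0.70, without sham replicate 6). In IL-1R1 nRestore mice it was 0, and 1 with both DESeq2 fits, with at least 10 counts in every mouse and with the striatal covariate, 4 with no filter (Sst, Penk and Tac1 added to Adcyap1), and 0 to 1 when 1 sham mouse was left out (1 without sham replicate 3). Of all genes DESeq2 called 381 in these mice, and 316 with gene-length offsets, against 102 by edgeR. Over all strains the number of members called was 4, and 1 in eIL-1-76 (the largest experiment), 2 in eIL-1-80 and 1 in TM-2-33 alone, with fewer mice. For single experiments and the alternatives within edgeR, the shares of all genes called are not given here. Over all strains Penk was also lost with no filter (adjusted P = 0.0673 by edgeR) and without covariates (0.056), and with the striatal covariate Penk and Tac1 were lost and Vip was gained. At 24 h it was 1 in C57BL/6J mice, 0 in the largest experiment and 0 to 1 when 1 sham mouse was left out, 0 in IL-1R1 gKO mice and 4 with both DESeq2 fits, which called 120 and 83 of all genes against 1 by edgeR. Over all strains at 24 h it was 1, 3 with DESeq2's size factors, 2 with gene-length offsets, RLE factors, at least 10 counts in every mouse or without the mouse that went against its labelled sex, and 0 without covariates and in eIL-1-38 (the largest) or NiL-1-24 alone. For sham mice among strains at 24 h it went from 1 to 0 with experiment added, and for the CHI effect at 9 h minus that at 72 h from 3 to 1 with no filter. The causes were not tested. The comparison of sham mice among times with experiment as a term could not be fitted, since no experiment holds mice of 9 h and of a later time. No paired analysis was possible because replicate numbers only follow the order of the accessions. Tac2 and Crh had the lowest counts (medians 82 and 89), which limits their precision.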
